A study of Homo sapiens with 3 samples.

Results

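The ICAM genes and 3 other vascular adhesion molecule genes, VCAM1, SELE and PECAM1, encode proteins that hold leukocytes at the surface of other cells. They were taken by symbol from the authors' deposited table, where all 8 (ICAM1, ICAM2, ICAM3, ICAM4, ICAM5, VCAM1, SELE and PECAM1) were found among 19215 genes. Transcripts were measured by RNA sequencing in C28/I2, an immortalised line of human chondrocytes, the cells of cartilage. The 3 listed samples are 1 group of spheroids, cell aggregates, that received 0.5% of the solvent DMSO for 48 h. Monolayer cultures of the line enter only through the authors' fold changes; the sources used here do not give their treatment, so culture form and any difference in treatment cannot be told apart. All samples come from a single line, and nothing in the labels says that the 3 spheroid samples were separate cultures, so that their spread may be technical.

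Leukocytes leave the blood in steps. Selectins catch the rolling cell, integrins on the leukocyte then bind immunoglobulin-type proteins of the ICAM and VCAM kind on the vessel wall, and PECAM1 and junction proteins act as the cell passes between endothelial cells. ICAM1, the ligand of the leukocyte integrins LFA-1 and Mac-1, and VCAM1, the ligand of VLA-4, can also be induced by inflammatory cytokines on chondrocytes and synovial cells, whereas E-selectin, the product of SELE, is known mainly from activated endothelium. ICAM2 is typical of endothelium and platelets, ICAM3 of resting leukocytes, ICAM4 of red blood cells and ICAM5 of neurons of the forebrain.

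Promoter sequences were available for 6 of the 8 genes, but not for ICAM2 and PECAM1, which also rose in the spheroids. The motifs were therefore not searched in those genes. Sequences of 4 genes are shown because ICAM1, VCAM1 and SELE rose in the spheroids and ICAM5 did not pass the threshold. Each runs 5′ to 3′ on the gene's own strand from 250 bases before the RefSeq start to 50 bases from it onward, in build GRCh38.p14. The stretches are chr19:10270870-10271169 on the plus strand for ICAM1, chr1:100719492-100719791 on the plus strand for VCAM1, chr1:169734030-169734329 on the minus strand for SELE and chr19:10289702-10290001 on the plus strand for ICAM5. Capitals mark matches on either strand to a kappa B-type motif bound by NF-kB factors (GGNNNTTCC), a GAS-type motif bound by STAT factors (TTCNNNGAA) and the TATA box (TATAAA).
ICAM1: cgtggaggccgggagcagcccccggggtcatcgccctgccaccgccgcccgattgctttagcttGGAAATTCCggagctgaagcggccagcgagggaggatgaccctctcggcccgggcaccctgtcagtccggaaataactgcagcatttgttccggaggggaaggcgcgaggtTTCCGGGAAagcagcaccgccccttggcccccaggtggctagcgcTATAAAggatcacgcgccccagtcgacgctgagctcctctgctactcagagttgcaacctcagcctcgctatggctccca
VCAM1: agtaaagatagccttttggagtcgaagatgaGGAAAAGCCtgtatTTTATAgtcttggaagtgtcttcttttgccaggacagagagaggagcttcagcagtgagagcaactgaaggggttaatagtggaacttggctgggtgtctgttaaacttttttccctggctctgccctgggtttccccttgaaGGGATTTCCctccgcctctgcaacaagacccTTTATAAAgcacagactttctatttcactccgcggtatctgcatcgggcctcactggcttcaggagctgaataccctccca
SELE: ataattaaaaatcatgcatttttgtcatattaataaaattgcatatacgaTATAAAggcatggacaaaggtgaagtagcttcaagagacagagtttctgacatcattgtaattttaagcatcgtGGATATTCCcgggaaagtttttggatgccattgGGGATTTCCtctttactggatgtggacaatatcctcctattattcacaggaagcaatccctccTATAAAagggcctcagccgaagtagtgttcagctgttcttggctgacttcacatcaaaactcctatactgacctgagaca
ICAM5: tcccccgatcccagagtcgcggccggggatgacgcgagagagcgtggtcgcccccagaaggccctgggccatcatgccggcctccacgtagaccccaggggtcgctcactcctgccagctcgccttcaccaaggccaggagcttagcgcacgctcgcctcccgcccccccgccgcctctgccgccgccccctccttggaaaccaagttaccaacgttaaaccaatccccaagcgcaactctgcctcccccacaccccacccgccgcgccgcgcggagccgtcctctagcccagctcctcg

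In the ICAM1 promoter the kappa B-type match GGAAATTCC lay at positions -186 to -178 from the RefSeq start, where it reads on both strands, the GAS-type match TTCCGGGAA at -75 to -67 and the TATA box at -30 to -25. The VCAM1 promoter held the kappa B-type match GGGATTTCC at -62 to -54, another at -219 to -211 on the opposite strand, and overlapping TATA matches on the 2 strands between -31 and -24, with a further one at -205 to -200. The SELE promoter held GGATATTCC at -126 to -118, GGGATTTCC at -93 to -85, and TATA boxes at -30 to -25 and -200 to -195. No match to these 3 motifs was found in the ICAM5 or ICAM4 windows, and of the 3 ICAM3 start sites only the most downstream had a kappa B-type match, at -7 to 2. Of all 35116 promoter windows of 300 bases, 20.1% held the kappa B-type motif, 7.66% the GAS-type motif and 11.5% the TATA box. An AP-1-type motif (TGANTCA), searched as well and held by 7.71% of windows, matched none of the members' windows.

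In spheroids, 5 of the 8 genes were higher than in monolayer and none lower in the authors' deposited table: ICAM1, SELE, PECAM1, VCAM1 and ICAM2. ICAM3, ICAM4 and ICAM5 did not pass the threshold, an adjusted p under 0.05 in the authors' DESeq2 comparison together with a log2 fold change of 1 or more in size. Across all 18467 genes tested, 11.5% were called higher and 9.34% lower under the same rule, against 62.5% of the 8 genes called higher. At an unadjusted p under 0.05 in the DESeq2 comparison, with no minimum fold change, 28% of all genes tested were higher and 26.3% lower; no member was lower under that rule either. The median log2 fold change of the 8 genes in the authors' deposited table was 2.43, beside 0.04 for all genes tested. In bulk samples, a change in the share of expressing cells and a change in RNA per cell cannot be told apart.

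ICAM1 had by far the highest level of the 8 in spheroids. It stood at 11.85, 16.76 and 12.93 FPKM, fragments scaled to transcript length and library total, in replicates 1, 2 and 3. Replicate 2 was above the others, and the mean was 13.8 ± 2.58 FPKM (SD, n = 3). ICAM1 held 51.7%, 56.8% and 50.2% of the summed level of the 8 genes in replicates 1, 2 and 3. Its coefficient of variation of 18.6% exceeded that of 95.8% of the 500 genes nearest to it in level, whose median was 7.25%. In the authors' deposited table its log2 fold change was 5.02, which is 32.5 times the monolayer level, with an adjusted p of 6.53e-81 in the DESeq2 comparison. That was the 117th highest of 18467 fold changes in the authors' deposited table. Whichever library is taken, its level lay above that of 69.5% to 76.3% of all genes, so the large fold change went with a moderate spheroid level.

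ICAM2 and ICAM3, which bind the same leukocyte integrin LFA-1, came next in level, and ICAM2 passed the threshold while ICAM3 did not. ICAM2 stood at 5.01, 5.91 and 5.74 FPKM in replicates 1, 2 and 3, a mean of 5.55 ± 0.478 FPKM (SD, n = 3). ICAM3 stood at 3.85, 4.70 and 4.65 FPKM, a mean of 4.40 ± 0.477 FPKM (SD, n = 3). Replicate 1 was the lowest for both genes, and their values did not overlap. In the authors' deposited table ICAM2 had a log2 fold change of 1.37, which is 2.59 times its monolayer level (DESeq2 adjusted p = 1.49e-05). ICAM3 had one of -0.04 (adjusted p = 0.907 in the DESeq2 comparison of the authors' deposited table). The difference between the 2 fold changes was not tested directly.

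PECAM1, VCAM1 and SELE, the genes best known from endothelium, were all below 1 FPKM in spheroids and yet higher than in monolayer. PECAM1, which binds itself across cell contacts, stood at 0.58, 0.65 and 0.74 FPKM in replicates 1, 2 and 3. VCAM1 stood at 0.55, 0.59 and 0.62 FPKM. SELE stood at 0.73, 0.57 and 0.39 FPKM. The 3 genes thus covered like ranges, with means of 0.657 ± 0.0802, 0.587 ± 0.0351 and 0.563 ± 0.170 FPKM (SD, n = 3 each), but SELE was highest in replicate 1, where PECAM1 and VCAM1 were lowest. The coefficient of variation was 5.99% for VCAM1 and 30.2% for SELE, beside medians of 22.6% and 23.2% over the 500 genes nearest to each in level.

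The fold changes of SELE, PECAM1 and VCAM1 exceeded those of 99.8%, 99.2% and 97.9% of all genes tested in the authors' deposited table. In the authors' deposited table SELE had a log2 fold change of 6.28, the 45th highest of all genes tested (DESeq2 adjusted p = 2.40e-06). The authors' deposited table gave PECAM1 4.68, which is 25.7 times its monolayer level (DESeq2 adjusted p = 4.28e-08). The authors' deposited table gave VCAM1 3.49, which is 11.2 times its monolayer level (DESeq2 adjusted p = 1.13e-05). Among 6057 genes tested with a mean spheroid level under 1 FPKM, the authors' deposited table had 8.88% called higher, against 12.7% of the 12410 genes at 1 FPKM or more. With values given to 2 decimals and monolayer libraries not analysed here, a fold change of such a gene is the authors' fitted value and no bound.

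The 2 remaining genes were low and did not pass the threshold. ICAM5 stood at 0.27, 0.31 and 0.61 FPKM in replicates 1, 2 and 3, so that replicate 3 lay well above the others. Its mean was 0.397 ± 0.186 FPKM (SD, n = 3), and the authors' deposited table gave it a log2 fold change of -0.57 (DESeq2 adjusted p = 0.336). ICAM4 was listed at 0.07, 0 and 0.07 FPKM, the lowest of the 8. Its log2 fold change was -0.25 in the authors' deposited table (DESeq2 adjusted p = 0.949).

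**Figure D1:**
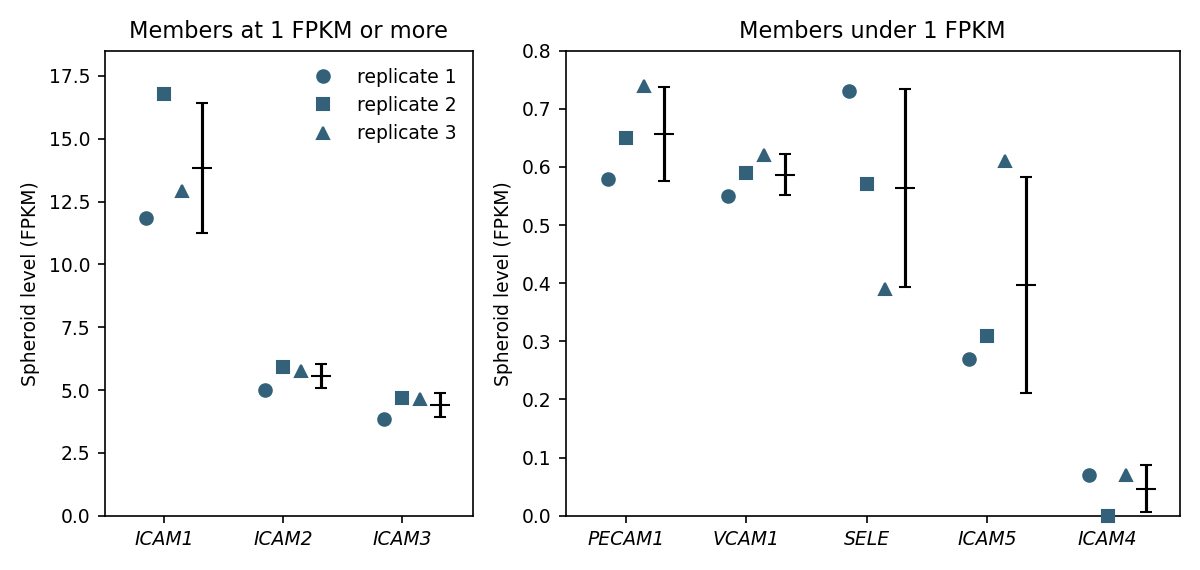
Spheroid level in FPKM (vertical axes, each from 0) of the 8 adhesion molecule genes in the 3 spheroid libraries; symbols are single libraries and bars to their right are the mean ± SD (n = 3). ICAM1 sits between 11.85 and 16.76 FPKM above ICAM2 and ICAM3, while PECAM1, VCAM1, SELE, ICAM5 and ICAM4 lie below 1 FPKM.

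The order of the mean levels was ICAM1, ICAM2, ICAM3, PECAM1, VCAM1, SELE, ICAM5 and ICAM4; FPKM is per length, so levels of different genes can be set side by side. ICAM1 exceeded ICAM2 in 3 of 3 libraries, by 2.37, 2.84 and 2.25 times in replicates 1, 2 and 3. ICAM2 exceeded ICAM3 by 1.30, 1.26 and 1.23 times, a narrow but repeated gap. ICAM3 exceeded PECAM1 by 6.28 to 7.23 times, the step that separates the genes at 1 FPKM or more from the rest. Below that step the neighbours from PECAM1 to ICAM5 did not separate beyond their spread: PECAM1 exceeded VCAM1 in 3 of 3 libraries, but by 0.07 FPKM against SDs of 0.0802 and 0.0351, and VCAM1 exceeded SELE, and SELE exceeded ICAM5, in 2 of 3. ICAM5 did separate from ICAM4, above it in 3 of 3 libraries by 0.35 FPKM against SDs of 0.186 and 0.0404. An exact paired permutation test over 3 libraries cannot give a two-sided p below 0.25, so none was run. Of the 8 genes, 6 were lowest in replicate 1; ICAM4 and SELE were the exceptions. Among all 16640 genes with a single lowest library, 33.7% were lowest in replicate 1.

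**Figure D2:**
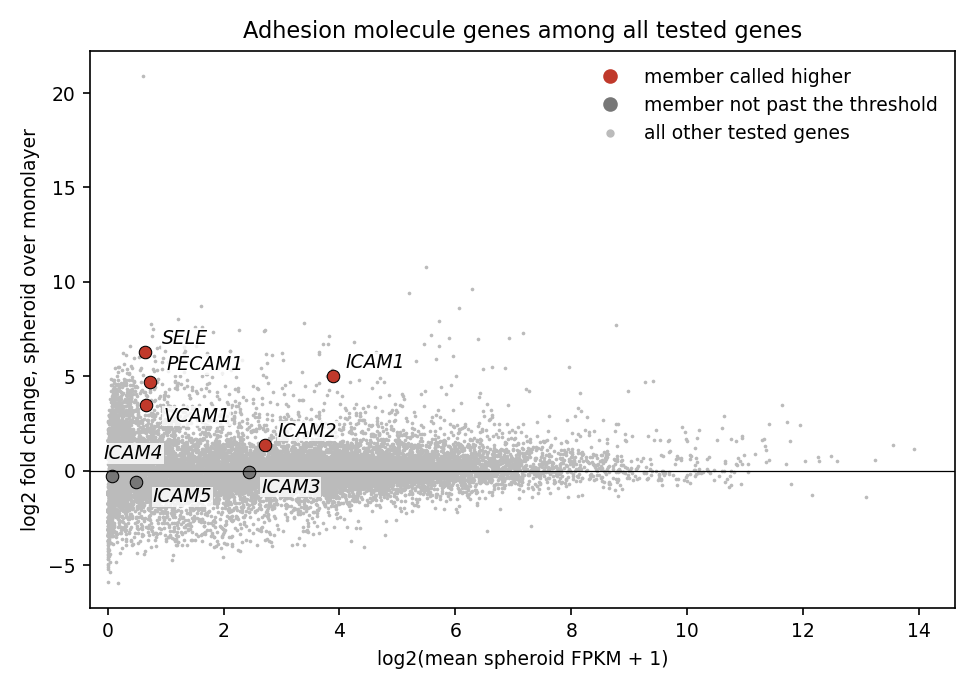
Authors' log2 fold change of spheroid over monolayer (vertical axis) against log2(mean spheroid FPKM + 1) (horizontal axis) for all 18467 tested genes in light grey, with the 8 adhesion molecule genes named; red marks those called higher. SELE, PECAM1 and VCAM1 lie at the low end of the level axis with log2 fold changes of 6.28, 4.68 and 3.49, and ICAM1 joins a fold change of 5.02 to a level of 13.8 FPKM.

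How closely each fold change was measured differed strongly between the genes. If the deposited p-values come from a two-sided Wald test, which the sources used here do not state, they imply standard errors of 0.26 for ICAM1, 0.30 for ICAM2 and 0.22 for ICAM3 on the log2 scale of the authors' deposited table. The same reckoning gives 0.75 for VCAM1, 0.82 for PECAM1, 1.26 for SELE and 2.45 for ICAM4 from the authors' deposited table. The implied 95% interval was 4.51 to 5.53 for ICAM1 and 3.81 to 8.75 for SELE in the authors' deposited table, so they overlapped although the value of SELE was the higher. The intervals of PECAM1 (3.08 to 6.28) and VCAM1 (2.02 to 4.96) overlapped that of ICAM1 as well, whereas that of ICAM2 (0.79 to 1.96) lay below those of all 4 in the authors' deposited table. For ICAM4 the interval of -5.04 to 4.55 allows a large change in either direction, and for ICAM5 it was -1.48 to 0.35 in the authors' deposited table. That of ICAM3, -0.47 to 0.38, lay inside the minimum fold change of 1 on both sides in the authors' deposited table.

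**Figure D3:**
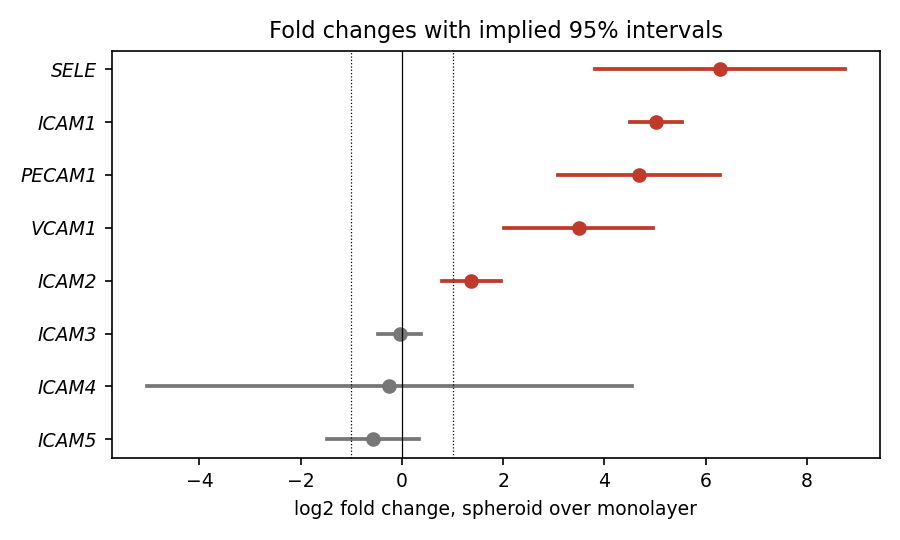
Authors' log2 fold change of spheroid over monolayer (points, horizontal axis) for the 8 genes, with the 95% intervals that the deposited p-values imply under a Wald test (lines); dotted lines mark -1 and 1 and red the genes called higher. The interval of ICAM1 is narrow (4.51 to 5.53), that of SELE wide (3.81 to 8.75), and that of ICAM4 spans 0 from -5.04 to 4.55.

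ICAM1, ICAM4, ICAM5 and ICAM3 lie close together on chromosome 19, VCAM1 and SELE on chromosome 1, and ICAM2 and PECAM1 on chromosome 17. The ICAM4 and ICAM5 genes follow ICAM1 directly among protein-coding genes, and neither passed the threshold that ICAM1 passed. Of 13 other protein-coding genes within this stretch or among the 5 on each side of it, 2 were called higher and 3 lower in the authors' deposited table, with log2 fold changes from -3.72 to 1.97. The shares of all genes tested under the same rule were 11.5% higher and 9.34% lower. The gene before ICAM1, MRPL4, of the mitochondrial ribosome, had a log2 fold change, per the authors' deposited table, of -0.90. S1PR2, a sphingosine-1-phosphate receptor gene next to it, was called higher at 1.58, and DNMT1, the maintenance DNA methyltransferase gene, lower at -1.76 in the authors' deposited table. P2RY11, a nucleotide receptor gene at the edge of the stretch, rose at 1.97 in the authors' deposited table. ZGLP1, which follows ICAM5, fell by 1.88 on the log2 scale, and S1PR5, listed at 0, 0.03 and 0 FPKM, by 3.72 in the authors' deposited table. The sources used here do not say whether reads were counted by strand, so reads of genes that overlap cannot be told apart.

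**Figure D4:**
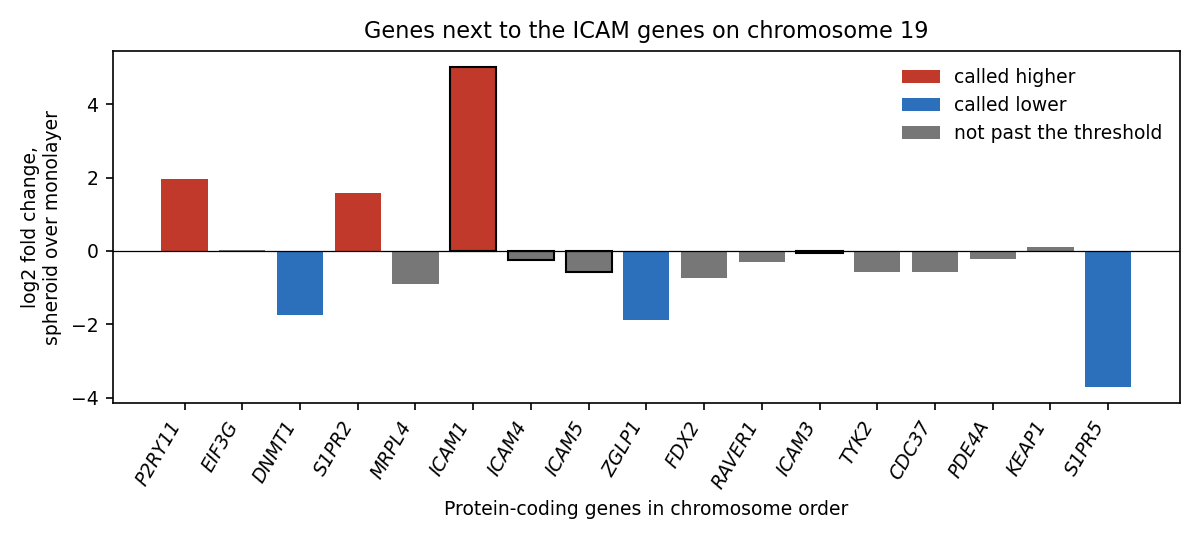
Authors' log2 fold change of spheroid over monolayer (bars from 0) for 17 protein-coding genes in their order on chromosome 19, with the 4 ICAM genes outlined; red is called higher, blue called lower and grey not past the threshold. ICAM1 stands alone at 5.02, next to ICAM4 at -0.25 and ICAM5 at -0.57.

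The genes nearest to ICAM1 in the plane of log2(mean spheroid FPKM + 1) and the authors' log2 fold change, among 18467 genes, were CMPK2, a mitochondrial nucleotide kinase gene, and PDK4, encoding a pyruvate dehydrogenase kinase. They lay at distances of 0.11 each. SLAMF8, an immunoglobulin-type receptor gene, followed at 0.27, TNFSF10, encoding the death ligand TRAIL, at 0.32 and CHST15, a sulfotransferase gene, at 0.43. Their levels ranged from 12.8 ± 0.656 FPKM for PDK4 to 17.1 ± 1.86 FPKM for CHST15 (SD, n = 3 each), and their log2 fold changes in the authors' deposited table from 4.71 for CHST15 to 5.34 for TNFSF10. The likeness rests on 3 libraries and 1 comparison.

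The integrins that bind these molecules on leukocytes were under 1 FPKM for 5 of 9 genes and at 1 FPKM or more for 4. In the authors' DESeq2 comparison 1 of the 9 was called higher and none lower, beside 11.5% and 9.34% of all genes tested. At an unadjusted p under 0.05 in the DESeq2 comparison, 3 were higher and none lower, beside the 28% and 26.3% of all genes tested. ITGAM, the alpha chain of Mac-1, had a log2 fold change, per the authors' deposited table, of 1.86 (DESeq2 adjusted p = 0.00404), at 0.38, 0.40 and 0.27 FPKM. ITGB1, the beta chain of VLA-4 and of many matrix receptors, made up 92.7% of the list's summed level at 552 ± 66.9 FPKM (SD, n = 3). Its log2 fold change was 0.08 in the authors' deposited table. ITGAX, an alpha chain known from myeloid cells, averaged 26.1 ± 1.33 FPKM (SD, n = 3), with 0.35 in the authors' deposited table (DESeq2 adjusted p = 0.00427). ITGAD, another leukocyte alpha chain, averaged 14.1 ± 0.711 FPKM (SD, n = 3), with 0.65 in the authors' deposited table (DESeq2 adjusted p = 3.85e-06). Both stayed under the minimum fold change. ITGB2, the remaining gene of the list at 1 FPKM or more, averaged 2.28 ± 0.283 FPKM (SD, n = 3). The authors' deposited table gave ITGB2 a log2 fold change of 0.02 (DESeq2 adjusted p = 0.962). ITGAL, the alpha chain of LFA-1, and ITGA4, that of VLA-4, averaged 0.117 ± 0.0351 and 0.030 ± 0.0265 FPKM (SD, n = 3 each). Over the 9 integrin genes the median log2 fold change was 0.35 per the authors' deposited table, beside 0.04 for all genes tested.

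Among 10 other selectin and selectin ligand genes, none was called higher or lower in the authors' DESeq2 comparison, beside 11.5% and 9.34% of all genes tested. At an unadjusted p under 0.05 in the DESeq2 comparison, 4 were higher and 2, ST3GAL4 and GCNT1, lower, beside 28% and 26.3% of all genes tested, so that the count of lower genes was no more than the share over all genes. SELP, the selectin of platelets and endothelium, averaged 0.0133 ± 0.0115 FPKM (SD, n = 3). CD44, a hyaluronan receptor that can carry selectin ligands, led the list in level at 304 ± 24.5 FPKM (SD, n = 3), with a log2 fold change, per the authors' deposited table, of 0.55. The median over the list was 0.36 in the authors' deposited table, or 0.45 without FUT7, which was at 0 in the 3 libraries.

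Of 16 other adhesion and junction proteins of leukocyte passage, 3 were called higher and 2 lower in the authors' deposited table, with a median log2 fold change of 0.53. Among all genes tested, 11.5% were called higher and 9.34% lower. At an unadjusted p under 0.05 in the DESeq2 comparison, 9 of the 16 were higher and 5 lower. That rule gave 28% higher and 26.3% lower among all genes tested. JAM2, a junctional adhesion molecule, came close to ICAM1 in both fold change and level, with a log2 fold change, per the authors' deposited table, of 4.67 and 10.4, 11.5 and 12.6 FPKM in replicates 1, 2 and 3. F11R, encoding the related JAM-A, stood at 1.10 and CD99, which acts after PECAM1 in leukocyte passage, at 1.07 in the authors' deposited table. PVR, the poliovirus receptor gene, and ESAM, an endothelial cell adhesion molecule, were lower at -1.48 and -1.25 in the authors' deposited table. BSG, encoding basigin, had the highest level of the list at 949 ± 101 FPKM (SD, n = 3) and a log2 fold change, per the authors' deposited table, of 0.57.

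Of 9 cytoplasmic anchors, proteins that tie adhesion molecules to actin, none was called higher and 1 lower in the authors' deposited table. It was ACTN4, an alpha-actinin that binds ICAM tails, at -1.16 in the authors' deposited table (DESeq2 adjusted p = 4.89e-26). MSN, encoding moesin, was the most abundant at 248 ± 15.3 FPKM (SD, n = 3), with a log2 fold change, per the authors' deposited table, of 0.05. Of 6 sheddases, proteases that can release adhesion molecules from the membrane, 3 were called higher and none lower in the authors' deposited table. For both lists, the shares called among all genes tested were 11.5% higher and 9.34% lower. MMP9 stood at 5.47, MMP14 at 2.35 and ADAM17, which can cleave ICAM1 and VCAM1, at 1.53 in the authors' deposited table. At an unadjusted p under 0.05 in the DESeq2 comparison, 7 of the 9 anchors were lower and none higher, and 4 of the 6 sheddases were higher and none lower, beside 28% higher and 26.3% lower of all genes tested. The medians were -0.60 for the anchors and 2.27 for the sheddases in the authors' deposited table.

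Among the 10 cytokine and receptor genes tested from the list of inducers of these molecules, 6 were called higher and none lower in the authors' deposited table. Over all genes tested, 11.5% were called higher and 9.34% lower. IL1B and TNF, which encode inducers of ICAM1, VCAM1 and SELE in other cells, had log2 fold changes, per the authors' deposited table, of 5.81 and 4.35. TNF was listed at 3.54, 4.35 and 2.80 FPKM and IL1B at 32.5, 43.3 and 41.5 FPKM in replicates 1, 2 and 3. The TNF receptor gene TNFRSF1B stood at 2.74 in the authors' deposited table, and TNFRSF1A had the highest level of the list at 156 ± 4.81 FPKM (SD, n = 3). IFNG, encoding interferon gamma, was listed at 0 in the 3 libraries and had no fold change.

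Of 15 transcription factor genes known to act on adhesion molecule promoters or to restrain those that do, 9 were called higher and none lower in the authors' deposited table. The calling rule gave 11.5% higher and 9.34% lower over all genes tested. NFKBIA, an inhibitor and target of NF-kB, stood at 2.83, RELB, an NF-kB subunit, at 2.63 and IRF1, an interferon-responsive factor, at 2.10 in the authors' deposited table. NFKBIA also had the highest level of the list at 307 ± 42.7 FPKM (SD, n = 3). At an unadjusted p under 0.05 in the DESeq2 comparison, 9 of the 10 cytokine and receptor genes were higher and none lower, and 12 of the 15 transcription factor genes were higher and 2, REL and GATA2, lower. The shares of all genes tested under that rule were 28% and 26.3%. Both lists were chosen with earlier results of these data known, so the counts are descriptive and no list was tested as a set. The medians were 1.66 for the cytokine list and 1.38 for this one in the authors' deposited table, against 0.04 for all genes tested.

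**Figure D5:**
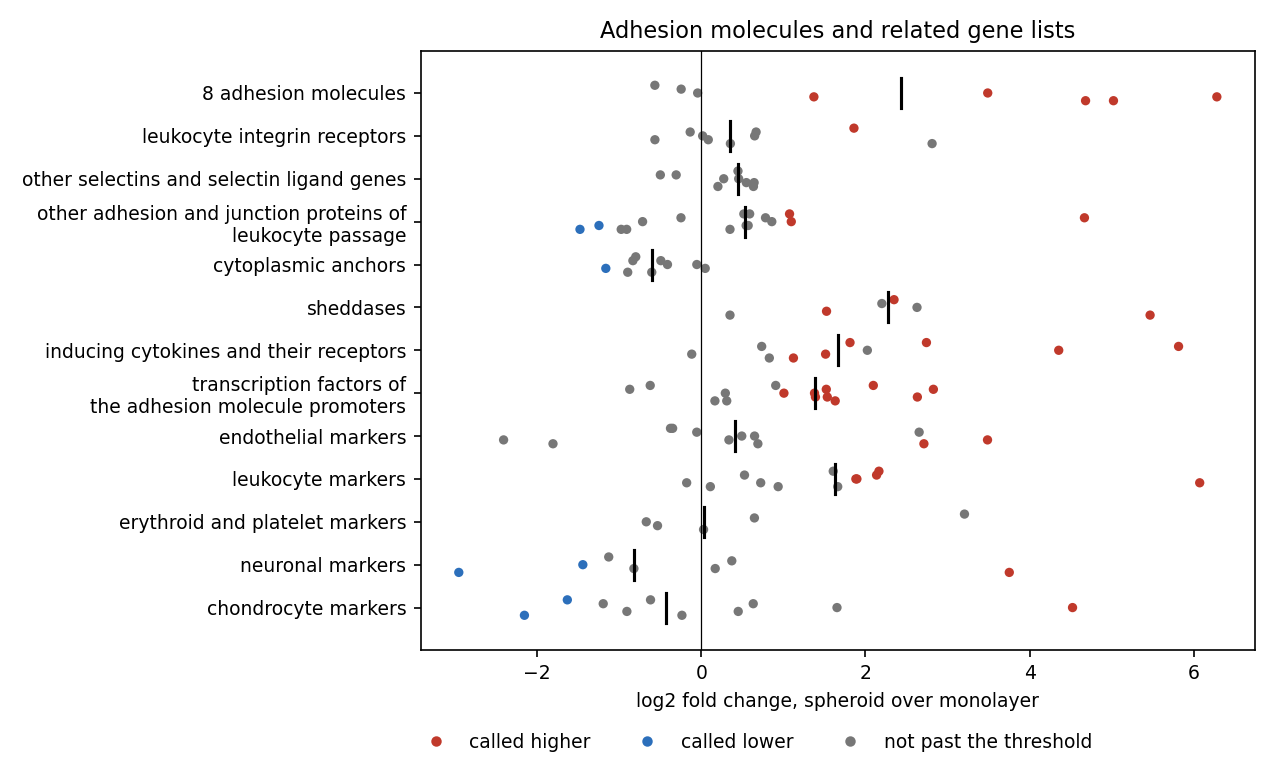
Authors' log2 fold change of spheroid over monolayer (horizontal axis) for the 8 adhesion molecule genes (top row) and 12 related gene lists, leaving out genes at 0 in the 3 spheroid libraries; points are genes, coloured by call, and black bars are medians. The 8 genes split between 5 called higher, at 1.37 to 6.28, and 3 from -0.57 to -0.04.

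Since several of the 8 genes are markers of endothelium, blood cells or neurons, markers of those cells are given beside them. Of 13 endothelial markers, 3 reached 1 FPKM, and their summed level was 23.2 to 25.1 FPKM over the 3 libraries. MMRN1 was at 0, and CDH5, the defining cadherin of endothelium, was listed at 0, 0.02 and 0.02 FPKM. NOS3 and KDR were called higher at 3.49 and 2.71 in the authors' deposited table, with means of 0.947 ± 0.0945 and 0.603 ± 0.0907 FPKM (SD, n = 3 each). No endothelial marker was called lower. Of the 12 tested, 4 were higher and 1 (CLDN5) lower at an unadjusted p under 0.05 in the DESeq2 comparison, beside 28% and 26.3% of all genes tested. EGFL7 made up 57.3% of the sum, and the other markers at 1 FPKM or more were TIE1 and ROBO4. TIE1 stood at 5.99, 6.75 and 5.78 FPKM in replicates 1, 2 and 3. Its log2 fold change was 0.69 in the authors' deposited table (DESeq2 adjusted p = 1.92e-05), under the minimum fold change. ROBO4 averaged 1.57 ± 0.252 FPKM (SD, n = 3), with -0.06 in the authors' deposited table. Among 13 leukocyte markers 5 were called higher and none lower in the authors' deposited table, with a summed level of 720 to 793 FPKM, of which CD68, which other cells also express, held 92.8%. CD68 itself stood at 2.16 in the authors' deposited table, with 702 ± 41.0 FPKM (SD, n = 3). CD3D, a gene of the T cell receptor complex, averaged 32.6 ± 3.31 FPKM (SD, n = 3) with 1.88 in the authors' deposited table. LCP2, a signalling adaptor gene of leukocytes, stood at 11.25, 11.59 and 13.08 FPKM, with 1.90 in the authors' deposited table. FCGR3A, an Fc receptor gene, stood at 6.07 and CD3E at 2.14 in the authors' deposited table, but at lower levels of 0.487 ± 0.153 and 1.09 ± 0.0693 FPKM (SD, n = 3 each). CSF1R, a receptor gene of macrophages, was not called, at 6.27 ± 0.395 FPKM (SD, n = 3) and 0.94 in the authors' deposited table. PTPRC, the common leukocyte antigen, was in contrast listed at 0, 0.01 and 0.06 FPKM, and TYROBP was at 0, so that these markers differed widely in level. Medians of the log2 fold changes, per the authors' deposited table, were 0.41 for the endothelial and 1.61 for the leukocyte markers, or 1.63 without TYROBP. Of the 13 leukocyte markers, 6 were higher and none lower at an unadjusted p under 0.05 in the DESeq2 comparison. For the calls of both marker lists, the shares among all genes tested were 11.5% higher and 9.34% lower. The part of endothelial or blood cell transcripts in the fold changes of the 8 genes was not tested beyond these levels.

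Of 9 erythroid and platelet markers 4 were at 0 in the 3 libraries (HBB, GYPB, GP9 and PF4), and of 8 tested none passed the threshold in the authors' DESeq2 comparison, nor did any have an unadjusted p under 0.05. Their summed level was 2.07 to 3.08 FPKM, and the authors' deposited table gave a median of -0.60, or 0.03 without the genes at 0. The summed level of 7 neuronal markers was 197 to 255 FPKM, of which TUBB3 made up 96.4%. Of the 7, GAP43 was called higher and SYT1 and RBFOX3 lower in the authors' deposited table. GAP43, SYT1 and RBFOX3 averaged only 0.273 ± 0.0874, 0.153 ± 0.0902 and 0.79 ± 0.265 FPKM (SD, n = 3 each). The chondrocyte label was met by few markers: of 11, only SOX9 reached 1 FPKM, at 6.71 ± 0.0866 FPKM (SD, n = 3), the summed level was 8.52 to 8.67 FPKM, and CNMD was at 0. Of the 10 tested, ACAN and HAPLN1 were called lower and SOX5 higher in the authors' deposited table. SOX5 was listed at only 0.05, 0.04 and 0.04 FPKM and HAPLN1 at 0.09, 0.04 and 0.08 FPKM. Among all genes tested, 11.5% were called higher and 9.34% lower. At an unadjusted p under 0.05 in the DESeq2 comparison, 2 neuronal markers were higher and 3 lower. Under that rule 1 chondrocyte marker was higher and 4 lower, beside 28% and 26.3% of all genes tested. Per the authors' deposited table the medians were -0.82 for the neuronal and -0.43 for the chondrocyte markers.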

How the data were processed

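Total RNA of the 3 spheroid samples was extracted with Trizol and made into libraries with a BGI kit, per the labels' protocols. Listed in the submitters' processing notes are Bowtie2 2.2.5, RSEM 1.2.12, DESeq2 1.4.5 and the build GRCh38.p13, without the step each served. The authors deposited FPKM values to 2 decimals for each library. The log2 fold changes, p-values and adjusted p-values were deposited by the authors from their DESeq2 comparison, per the file headers. Positive values are higher in spheroids, since 356 of 358 genes listed at 0 in every spheroid library had a negative one. A further 3 FPKM columns, named in the file header as monolayer libraries, matched no listed sample and were used in no step, so monolayer levels are not given and the comparison was not refitted. Read depth is unknown and counting intervals are left out; FPKM sums were 571705, 581522 and 623496.

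Levels are means ± SD over the 3 libraries. Standard errors and 95% intervals of fold changes were derived from the deposited p-values as if from a Wald test. The calling function was tested on simulated data. Members and gene lists were chosen with earlier results of these data known, and the motifs after the promoter sequences were seen. Named genes are the 8 members, up to 3 called members per list and direction with the largest fold change, each list's most abundant gene, the 5 genes nearest to ICAM1 and those next to the ICAM genes on chromosome 19; others, such as markers at or near 0, were chosen after their values were seen. From a few lists not every such gene is described, and some genes are not reported here and were taken off their lists. Promoters and gene order are from RefSeq (GRCh38.p14), the latter for order only. Alternatives were other thresholds, a level minimum of 1 FPKM, centred fold changes, leaving out each replicate, other scalings and a pseudocount of 0.1 in place of 1. Scripts ran under Python 3.11.15 with pandas 2.3.3, matplotlib 3.10.9, NumPy 2.4.6 and SciPy 1.17.1.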

Additional observations from a re-analysis of the deposited data

How the results depend on the processing

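The 5 genes called higher (ICAM1, ICAM2, PECAM1, SELE and VCAM1) were the same at an adjusted p under 0.01, with no minimum fold change and with fold changes centred on the median. With a minimum absolute log2 fold change of 2, 4 were called, without ICAM2. Among genes with a mean spheroid level of at least 1 FPKM, 2 were called, ICAM1 and ICAM2, since the other 3 lie under that level. No member was called lower under any of these settings. Over all genes, 4795 were called higher and 4518 lower with no minimum fold change, and 933 higher and 565 lower with a minimum of 2. The other counts over all genes stayed within 1.5 times.

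Of the 7 neighbouring pairs in the order of levels, 7 kept their order without replicate 1 or 2 and 6 without replicate 3, where SELE, at 0.65 FPKM, came above both PECAM1, at 0.615, and VCAM1, at 0.57. With 3 libraries, leaving out 1 cannot move a mean by 1 SD, and the scale factors lay close to 1, so the levels under these alternatives say little about stability. With a pseudocount of 0.1, 4 of the 7 neighbouring log2 ratios moved by 1 SD or more; for the 5 pairs in the same order in 3 of 3 libraries a pseudocount cannot turn the sign. No paired analysis was possible because only 1 group of samples is listed. The deposited fold changes could not be recomputed without any library. Depth is unknown, and at 2 decimals the values of ICAM4 lie within a few rounding steps of 0.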
